A study of Homo sapiens with 44 samples.

Results

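The comparison sets tumours grown from the A549 line het1 against the same line in culture. It rests on 7 of the 44 libraries of the series, the 4 het1 tumours collected at day 30 and the 3 het1 cultured-cell libraries, and these were picked by their sample titles. A549 is a human lung adenocarcinoma line. Per the series description, het1 belongs to a set of isogenic A549 lines whose p300 protein lacks the TAZ2 domain, and its genotype label reads het1. The het of the label is read here as heterozygous, so p300 with this domain may also remain in het1. The other lines are het2, homo and the parental WT, each with 3 cell and 4 day 30 tumour libraries, and 16 further tumours of WT and het1 were given DMSO or SAHA for 4 weeks. The het1 groups received no treatment per the labels, and every het1 library comes from a single line, so what is seen may belong to that line alone. The labels do not name the host, and do not tell whether each library had its own culture or animal. The p-values therefore reflect only how far these libraries spread, which may be technical. Cells and tumours were counted in separate tables, so growth setting and table coincide and cannot be told apart. Counts per gene cannot show the truncation itself.

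p300, encoded by EP300, is a lysine acetyltransferase that marks enhancers, and its TAZ2 domain is a docking surface for the activation regions of transcription factors. HIF, which raises glycolytic and angiogenic genes when oxygen is low, and the STAT factors of the interferon response are among the factors known to recruit p300 or its paralog CBP. That recruitment need not be through TAZ2. Cells in a tumour share space, oxygen and nutrients with host vessels and stroma, whereas cultured cells grow in a rich medium at high oxygen.

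3 gene groups whose members moved together in the tumours, as given further on, are shown by the bases just before the start of a few members. CDC20, CCNB2, IFIT1 and ISG15 were chosen after their values were seen. Each gene shown holds the letters marked in it, which not every member did, as counted below. The sequences come from RefSeq on GRCh38.p14, each 150 bases long and ending at the base before the start, read 5′ to 3′ along the gene's strand. For 2 raised hypoxia genes the capitals mark ACGTG, the core letters of the hypoxia response element, here read on the opposite strand. CA9 encodes a carbonic anhydrase at the cell surface (chr9:35673778-35673927, plus strand), and P4HA1 encodes a collagen prolyl hydroxylase subunit (chr10:73096867-73097016, minus strand).
CA9: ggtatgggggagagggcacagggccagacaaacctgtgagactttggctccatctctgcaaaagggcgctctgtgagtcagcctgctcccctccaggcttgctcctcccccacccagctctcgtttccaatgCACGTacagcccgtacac
P4HA1: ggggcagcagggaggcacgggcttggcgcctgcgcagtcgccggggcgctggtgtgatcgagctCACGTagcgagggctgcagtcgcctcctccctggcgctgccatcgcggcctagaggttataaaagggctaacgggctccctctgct
For 3 lowered mitosis genes the capitals mark TTTGAA, a form of the cell cycle homology region, and CCAAT. PLK1 is a mitotic kinase (chr16:23678739-23678888, plus strand), CDC20 activates the anaphase-promoting complex (chr1:43358831-43358980, plus strand), and CCNB2 is a B-type cyclin (chr15:59104996-59105145, plus strand).
PLK1: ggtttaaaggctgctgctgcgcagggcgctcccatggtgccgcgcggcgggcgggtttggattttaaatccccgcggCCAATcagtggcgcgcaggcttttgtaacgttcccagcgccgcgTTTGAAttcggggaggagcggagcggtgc
CDC20: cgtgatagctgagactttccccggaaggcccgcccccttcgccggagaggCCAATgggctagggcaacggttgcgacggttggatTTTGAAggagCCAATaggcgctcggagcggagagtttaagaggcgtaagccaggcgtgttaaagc
CCNB2: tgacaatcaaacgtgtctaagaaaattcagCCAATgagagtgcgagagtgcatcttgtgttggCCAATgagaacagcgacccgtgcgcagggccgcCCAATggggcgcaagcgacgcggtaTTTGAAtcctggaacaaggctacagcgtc
For 2 raised interferon-stimulated genes the capitals mark 2 copies of TTTC, or of GAAA on the other strand, parted by 2 bases, the core of the interferon-stimulated response element. Each gene holds 2 such pairs, which overlap in ISG15. IFIT1 binds foreign RNA (chr10:89392473-89392622, plus strand), and ISG15 is a ubiquitin-like protein (chr1:1013347-1013496, plus strand).
IFIT1: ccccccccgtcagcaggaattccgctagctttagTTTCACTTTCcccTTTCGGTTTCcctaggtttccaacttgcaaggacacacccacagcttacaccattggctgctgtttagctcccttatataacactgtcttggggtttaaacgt
ISG15: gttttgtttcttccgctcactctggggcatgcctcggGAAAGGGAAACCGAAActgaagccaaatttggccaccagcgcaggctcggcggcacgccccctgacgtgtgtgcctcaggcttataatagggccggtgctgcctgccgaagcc

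The letters were counted on both strands over 300 bases, 250 before and 50 after the start. ACGTG was in 12 of the 22 raised hypoxia genes that had an entry (54.5%), against 21.4% of the 35116 promoters in the table. TTTGAA was in 11 of 18 lowered G2 and mitosis genes (61.1%) against 15.2%, and CCAAT in 15 of those 18 (83.3%) against 34.6%. The paired TTTC was in 14 of 19 raised interferon-stimulated genes (73.7%) against 3.6%. TCACNCCAC, letters of the sterol regulatory element, was in 1 of 7 raised cholesterol genes (14.3%) and 0 of 7 lowered ones, against 1.1%. The CArG motif of serum response factor was in 0 of 13 raised immediate early genes, against 1.3%. TGACTCA, the AP-1 letters that NRF2 sites contain, was in 0 of 9 raised NRF2 targets and 1 of 13 raised immediate early genes, against 4.9% of promoters. Each member was counted by 1 entry, whereas the comparison took every entry of the table. Nearly all hypoxia, mitosis and interferon members were called, so their shares describe the lists and do not bear on the change in tumours. These are descriptions of sequence in one window, not of binding.

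Of 24227 genes tested, 8913 (36.8%) were higher in het1 tumours and 6882 (28.4%) were lower, each at an adjusted p under 0.05, which is called higher or lower from here on. At least 2-fold changes were called for 4727 genes higher (19.5%) and 1919 lower (7.92%). The median log2 fold change (log2FC, tumours minus cells) of all genes tested was 0.09. Levels are given as CPM, counts scaled by library size and TMM factor to a common total, as the mean ± SD over 3 cell or 4 tumour libraries, and ± after a log2FC is its standard error. CPM does not correct for gene length, so levels are compared within a gene. The 7 libraries held 68391173 to 84371070 counts. Tumour replicate 4 stood apart from the other tumours: its chi-square per degree of freedom against each of them was 27.5 to 54.5, against 8.56 to 22.6 between the others. Without it 8773 genes were higher and 6795 lower.

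**Figure D1:**
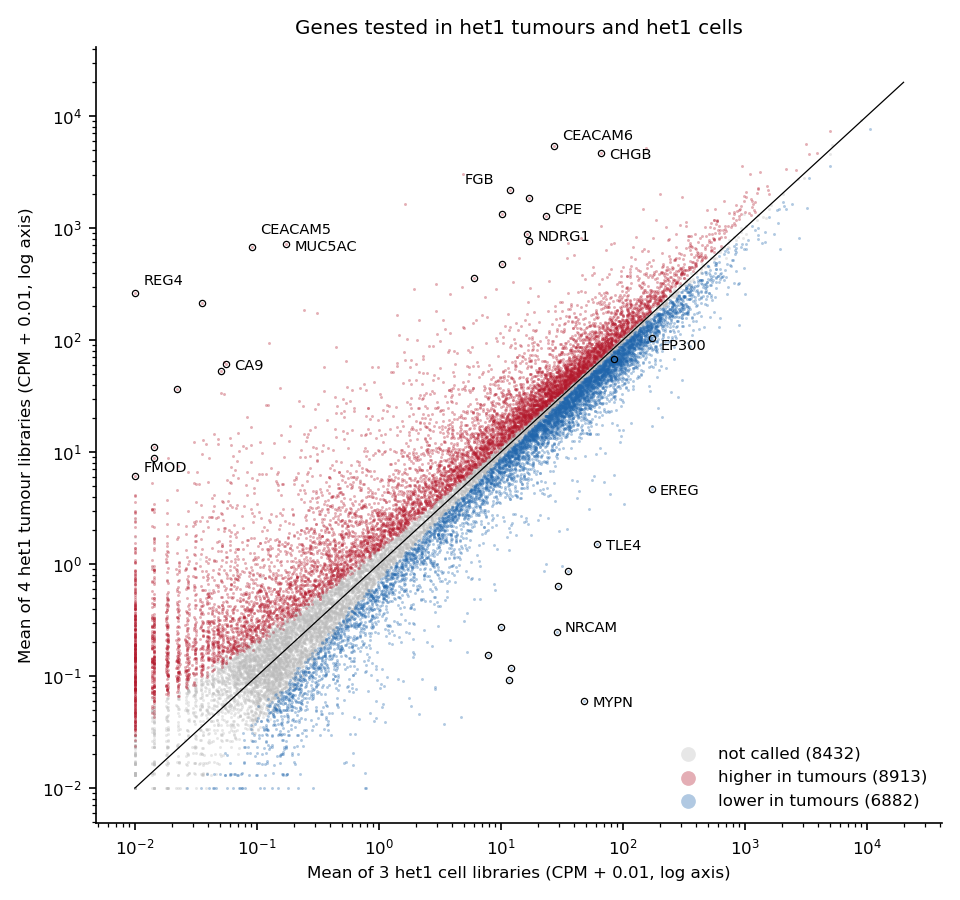
Mean CPM plus 0.01 of each of the 24227 genes tested, with the 3 het1 cell libraries on the horizontal and the 4 het1 tumour libraries on the vertical log axis, coloured by call, with named genes circled and some labelled. The 8913 higher and 6882 lower genes lie on both sides of the line of equality, and REG4, CEACAM6 and MYPN lie far from it.

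Marker genes of several, not all, other cell types were higher in the tumours, and their part in the results below was not tested. The counts of called markers stand beside 36.8% higher and 28.4% lower over all genes. In bulk libraries, fewer cells of a type and less RNA per cell cannot be told apart. Summed fibroblast markers ran from 41.0 to 43.4 CPM in cells and from 112 to 296 CPM in tumours, with 8 of 10 tested members higher and 1 lower. COL1A1, a fibrillar collagen, made up 54.6% of that tumour sum, and DPT was at 0. COL1A1 was at 14.5, 12.7 and 14.0 CPM in the cells and at 173, 108, 157 and 48.7 CPM in tumour replicates 1 to 4, so tumour replicate 4 held the least. The endothelial sum went from 19.9 to 25.2 CPM in cells to 58.9 to 70.6 CPM in tumours, with 6 of 9 higher and 1 lower, but EGFL7 was 97.2% of it and PLVAP was at 0. The vessel marker PECAM1 was at 0.0249 ± 0.0113 CPM in cells and 0.412 ± 0.25 CPM in tumours, a called rise. KDR, the main VEGF receptor, had 0 counts in cells and 0.384 ± 0.131 CPM in tumours. CDH5, the endothelial cadherin, was the lowered marker, from 0.146 ± 0.038 to 0.0225 ± 0.0268 CPM, and was named after its values were seen.

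Myeloid markers summed to 9.53 to 10.3 CPM in cells and 19.5 to 23.0 CPM in tumours, with 6 of 7 higher and C1QA at 0. LYZ, a phagocyte enzyme also made by secretory epithelia, led that sum with 6.63 ± 0.924 CPM in tumours. Red cell markers went from 0.142 to 0.236 CPM to 2.38 to 5.89 CPM, almost all HBB. Skeletal muscle markers went from 11.0 to 12.2 CPM to 50.4 to 122 CPM, led by NEB, with 2 of 13 called (9 with DESeq2). The muscle actin ACTA1 was at 1.02, 1.08, 1.34 and 19.2 CPM in the tumours, with replicate 4 far above the others (log2FC 3.04, and 0.72 without that tumour, not called in either case). Adipocyte markers went from 34.9 to 37.5 CPM to 122 to 141 CPM, with 4 of 5 higher and ADIPOQ at 0. Pericyte and smooth muscle markers went from 18.3 to 19.1 CPM to 24.8 to 36.6 CPM, with 5 of 8 higher. Keratinocyte markers (29.6 to 33.7 CPM in cells, 34.2 to 38.7 CPM in tumours) had 3 of 5 higher and 1 lower, and KRT10 was 87.4% of the tumour sum. Schwann cell markers (89.7 to 93.7 CPM and 85.4 to 105 CPM) had 2 of 4 higher and 1 lower, near the shares of all genes, 36.8% and 28.4%. Lymphocyte markers (0.322 to 0.664 CPM and 0.282 to 0.875 CPM) had 0 of 3 called.

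**Figure D2:**
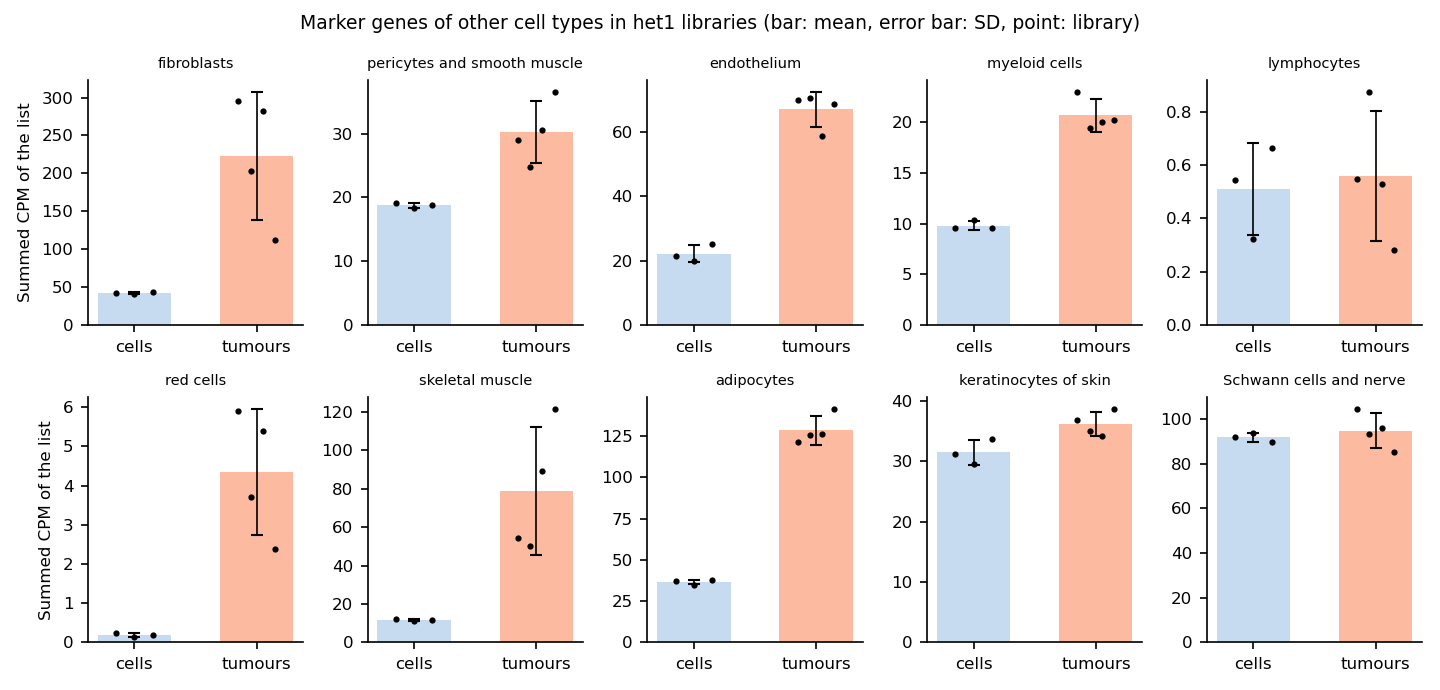
Summed CPM of 10 marker lists in the 3 het1 cell and 4 het1 tumour libraries, with bars for the mean, error bars for the SD and points for libraries. Fibroblast sums reached 112 to 296 CPM in tumours, above all 3 cell libraries, while lymphocyte sums overlapped between the settings.

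The 10 largest rises, among genes at a mean of 5 CPM or more in the higher group, without overlap and outside the marker lists, included secreted proteins of gut and mucous epithelia. REG4, a lectin of the intestinal epithelium (chromosome 1, 119794018 to 119811660, GRCh38), had 0 counts in each of the 3 cell libraries and stood at 207, 288, 266 and 290 CPM in the tumours. Set against 3 counts over the cell group, it was at least 20978-fold higher (adjusted p = 1.34e-10). CEACAM5, the carcinoembryonic antigen (chromosome 19, 41708585 to 41729798), was at 0.0707, 0.0515 and 0.120 CPM in cells and at 645, 677, 780 and 627 CPM in tumours. No tumour came near any cell library, and the log2FC was 13.03 ± 0.61 (adjusted p = 3.92e-14). MUC5AC, a gel-forming airway and stomach mucin, went from 0.163 ± 0.0377 to 714 ± 174 CPM (log2FC 12.07 ± 0.61), with tumour replicate 4 the lowest at 459 CPM. TFF3, a trefoil peptide secreted with mucins, went from 0.0255 ± 0.0225 to 213 ± 83.5 CPM (log2FC 12.96 ± 0.61), with replicate 4 the highest at 338 CPM.

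The other 6 of these 10 genes are receptors, a matrix protein and enzymes. FMOD, a collagen-binding proteoglycan, had 0 counts in cells and 5.05 to 6.73 CPM in tumours, at least 482.5-fold higher (adjusted p = 1.74e-16). CALCR, the calcitonin receptor, had 3 counts in all cell libraries and 10824 in the tumours, a ratio of 2870 (95% exact binomial interval 982 to 13918, counting error only). ADRA2A, the alpha-2A adrenergic receptor, had 1 count against 3355, a ratio of 2669 (479 to 105430). PCK1, which opens gluconeogenesis from oxaloacetate, had 1 count against 2625, a ratio of 2088 (374 to 82496). The PCK1 tumour values of 10.1, 13.3, 6.18 and 5.97 CPM varied more than those of the receptors. CA9, whose promoter is shown above, was at 0.0590, 0.0515 and 0.0266 CPM in cells and at 50.6, 59.9, 67.4 and 65.3 CPM in tumours (log2FC 10.31 ± 0.63, adjusted p = 3.25e-12). FXYD2, a regulatory subunit of the sodium pump, went from 0.0413 ± 0.0368 to 52.6 ± 3.23 CPM (log2FC 10.23 ± 0.28).

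Among genes already at 5 CPM or more in cells, CEACAM6 rose most. This adhesion protein of mucosal epithelia, next to CEACAM5 on chromosome 19 (41750977 to 41772208), was at 26.5, 26.7 and 28.9 CPM in cells. In the tumours it was at 5374, 4809, 5284 and 6157 CPM, and the lowest tumour was far above the highest cell library (log2FC 7.63 ± 0.22, 197.5-fold, adjusted p = 3.01e-18). CEACAM5 and CEACAM6 are close paralogs, and the sources used here do not give how reads shared by both were counted. The 3 fibrinogen chains, which lie side by side on chromosome 4, rose together. FGB was at 11.3, 12.2 and 12.4 CPM in cells and at 1703, 2027, 2600 and 2412 CPM in tumours (182.5-fold, adjusted p = 9.38e-21). FGG rose 131-fold and FGA 110-fold, and for each chain tumour replicate 1 was the lowest of the 4. FGL1, a fibrinogen-like liver protein, rose 46.9-fold from 10.2 ± 0.885 to 480 ± 22.5 CPM.

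Genes of regulated secretion were also among these rises. CHGB, a granin that packs dense-core vesicles, was at 64.2, 62.1 and 70.8 CPM in cells and at 5218, 5125, 4155 and 4130 CPM in tumours (70.9-fold, log2FC 6.15 ± 0.20, adjusted p = 1.62e-17). CPE, the carboxypeptidase that trims prohormones, rose 54.7-fold to 1283 ± 118 CPM. CPLX2, a complexin that clamps vesicle fusion, rose 53.6-fold from 16.5 ± 0.505 to 883 ± 78.6 CPM. CDH17, a cadherin of intestine, rose 59.0-fold to 355 ± 12.0 CPM, and NDRG1, a stress gene raised by hypoxia, rose 45.0-fold to 765 ± 54.1 CPM. In all 10 genes every tumour lay above every cell library, as the rule for naming them required.

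The 10 largest falls included genes known from neurons and muscle. MYPN, a protein of the muscle Z-line (chromosome 10, 68106117 to 68212017), was at 48.7, 47.1 and 49.5 CPM in cells and at 0.0444, 0, 0.0928 and 0.0613 CPM in tumours. The drop was 936-fold (log2FC -9.87 ± 0.32, adjusted p = 2.36e-19). EPHA5, an ephrin receptor, fell from 11.7 ± 1.09 to 0.0829 ± 0.0324 CPM, and NRCAM, a neuronal adhesion molecule, from 28.7 ± 0.461 to 0.239 ± 0.096 CPM. FMN2, an actin nucleator, fell 112-fold and NMUR2, a neuromedin U receptor, 52.9-fold. The glycosyltransferase gene MGAT4C fell 46.8-fold, the collagen gene COL26A1 41.8-fold and the homeobox gene GBX2 37.1-fold. TLE4, a Groucho corepressor, was at 62.6, 62.4 and 60.8 CPM in cells and at 1.38, 1.17, 1.90 and 1.58 CPM in tumours (41.0-fold lower, adjusted p = 5.17e-25). EREG, the EGF receptor ligand epiregulin, was at 172, 175 and 170 CPM in cells and at 5.83, 4.78, 4.14 and 4.02 CPM in tumours (36.8-fold lower, adjusted p = 1.90e-15).

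**Figure D3:**
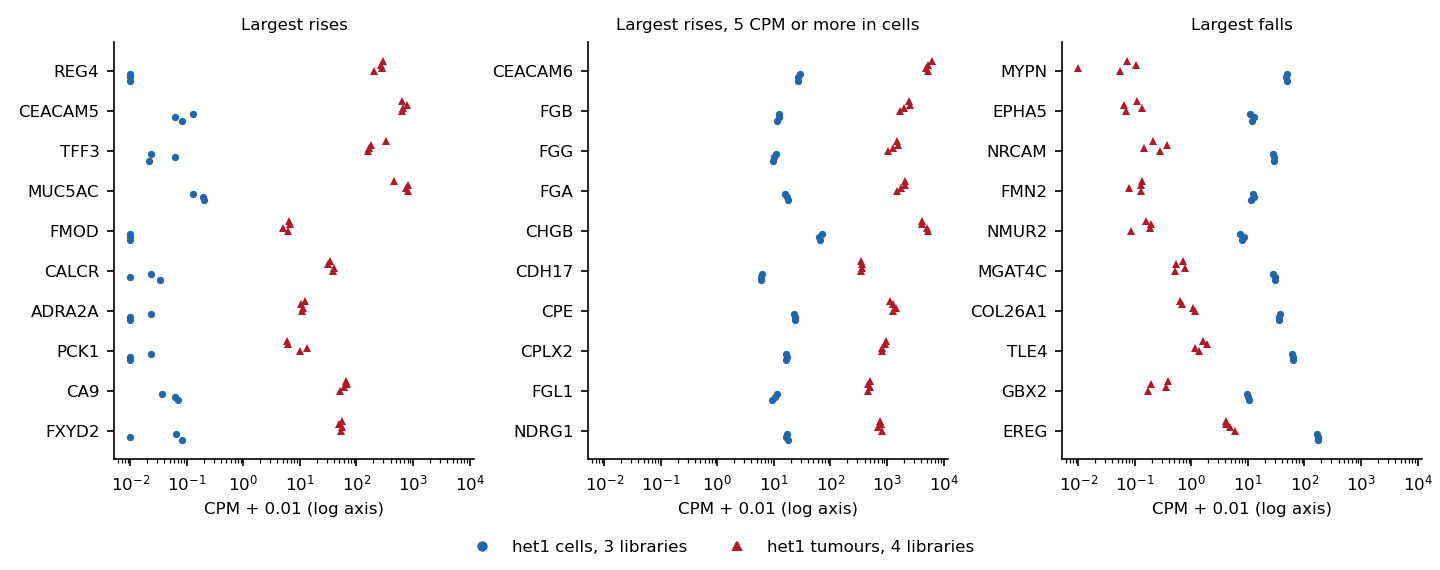
CPM plus 0.01 on a log axis in each het1 cell library (blue circles) and each het1 tumour library (red triangles) for the 10 largest rises, the 10 largest rises among genes at 5 CPM or more in cells, and the 10 largest falls, each among genes at a mean of 5 CPM or more in the higher group and outside the marker lists. The settings do not overlap for any of the 30 genes, which the naming rule required, and REG4 and FMOD sit at 0.01 in cells because their counts there were 0.

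Hypoxia genes were higher almost throughout. Of 26 HIF targets tested, 25 were higher and 1 lower, 23 of them at least 2-fold higher, with a median log2FC of 2.02 against 0.09 over all genes, of which 36.8% were higher and 19.5% at least 2-fold higher. P4HA1 was at 74.0, 77.3 and 70.5 CPM in cells and at 345, 366, 348 and 391 CPM in tumours (4.90-fold, adjusted p = 5.06e-20). P4HA2, its partner isoform, rose 3.74-fold and BNIP3L, a mitophagy receptor, 4.13-fold. AK4, a mitochondrial adenylate kinase, went from 14.7 ± 1.04 to 134 ± 10.3 CPM and INSIG2, a brake on sterol synthesis, from 18.9 ± 1.14 to 39.5 ± 1.09 CPM. VEGFA, the main vessel growth factor, was at 24.8, 25.5 and 24.2 CPM in cells and at 131, 123, 111 and 96.5 CPM in tumours (4.64-fold, adjusted p = 3.69e-15). Named after their values were seen, the glucose transporter SLC2A1 rose 7.17-fold and EGLN3, a HIF prolyl hydroxylase, 71.4-fold. The exception was PFKFB3, an activator of glycolysis, which fell from 355 to 266 CPM and was named after its values were seen.

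Glycolytic enzymes changed by smaller factors, beside 36.8% higher, 19.5% at least 2-fold higher and 28.4% lower over all genes. Of 17 genes, 14 were higher and 3 lower, with 6 at least 2-fold higher and a median log2FC of 0.45. PGK1 rose 2.13-fold from 558 ± 9.30 to 1190 ± 50.8 CPM, and LDHA, which turns pyruvate to lactate, 1.55-fold from 1520 ± 28.1 to 2353 ± 52.1 CPM. ENO2, an enolase typical of neurons, was at 38.2, 38.6 and 35.7 CPM in cells and at 221, 206, 203 and 179 CPM in tumours (5.39-fold, adjusted p = 2.76e-11). PFKL, the liver phosphofructokinase, rose 2.03-fold while PFKM, the muscle form, fell 1.35-fold. ENO1 and PGAM1 were the other enzymes that fell, by 0.36 and 0.14 on the log2 scale, and were named after their values were seen.

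Genes of DNA replication and division were lower without exception. All 25 S phase genes tested were called lower (median log2FC -1.07, 17 at least 2-fold), as were all 24 G2 and mitosis genes (median -1.32, 21 at least 2-fold). Over all genes 28.4% were lower and 7.92% at least 2-fold lower. MKI67, the proliferation antigen, was at 618, 628 and 618 CPM in cells and at 158, 148, 168 and 161 CPM in tumours (log2FC -1.97 ± 0.10, adjusted p = 1.73e-15). PLK1 was at 106, 106 and 108 CPM in cells and at 35.9, 33.2, 36.0 and 45.6 CPM in tumours (2.83-fold lower, adjusted p = 3.52e-15). CENPF, a kinetochore protein, fell 3.94-fold, AURKA, a spindle kinase, 2.81-fold, and TPX2, its activator, 2.50-fold. For PLK1, AURKA and TPX2 tumour replicate 4 was the highest of the tumours, still below every cell library. CDC20 and CCNB2, shown for their motifs, fell 2.70-fold and 2.04-fold. In S phase, the G1/S cyclin CCNE1 fell 3.44-fold, the ribonucleotide reductase subunit RRM1 2.24-fold and the helicase subunits MCM5 and MCM7 2.52-fold and 2.32-fold. UHRF1, which maintains DNA methylation, fell 2.22-fold.

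Ribosome genes divided by function, where 36.8% of all genes were higher and 28.4% lower, 7.92% at least 2-fold lower. All 22 MYC targets and ribosome biogenesis genes were lower (median log2FC -0.71, 3 at least 2-fold), among them NCL, the nucleolar protein nucleolin, from 1395 ± 21.7 to 731 ± 18.2 CPM. UTP20 and POLR1A, needed for rRNA processing and synthesis, fell 2.61-fold and 2.46-fold, and NOLC1 and POLR1B fell 1.93-fold and 1.82-fold. In contrast 36 of 37 cytosolic ribosomal protein genes were higher and 1 was not called, with a median log2FC of 0.56. RPLP0 was at 1027, 1037 and 1013 CPM in cells and at 2150, 2111, 2025 and 2087 CPM in tumours (2.04-fold, adjusted p = 1.03e-18). RPL13, RPL3 and RPS4X rose 2.02-fold, 1.63-fold and 1.63-fold. Ribosomal protein genes have many processed pseudogenes, and the sources used here do not give how their reads were counted.

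Interferon-stimulated genes were mostly higher, beside 36.8% higher, 19.5% at least 2-fold higher and 28.4% lower over all genes. Of 30 tested, 27 were higher, 25 of them at least 2-fold, 0 were lower and 3 were not called, with a median log2FC of 3.18. OAS1, a sensor of double-stranded RNA, was at 5.70, 4.97 and 5.04 CPM in cells and at 50.3, 63.1, 56.8 and 63.8 CPM in tumours (11.2-fold, adjusted p = 5.21e-16). The membrane proteins IFITM2 and IFITM3, which block virus entry and are near-identical copies, rose 9.12-fold and 13.3-fold, ISG20, an RNA exonuclease, 4.28-fold and STAT2, a signal carrier of the pathway, 2.11-fold. IFIT1 was at 4.15, 4.06 and 4.2 CPM in cells and at 18.6, 28.8, 16.4 and 23.8 CPM in tumours (log2FC 2.40 ± 0.48, adjusted p = 1.52e-04), and ISG15 rose from 0.587 ± 0.131 to 6.03 ± 2.17 CPM (log2FC 3.36 ± 0.61). HERC6 was at 18.1 ± 0.513 CPM in cells and 20.1 ± 2.18 CPM in tumours and was not called. IFIT5 was not called either, and both were named after their values were seen. Myeloid, fibroblast and endothelial markers rose in the same tumours, as given above.

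Antigen presentation genes followed, beside 36.8% higher and 28.4% lower over all genes. Of 15 MHC class I genes, 13 were higher, 0 lower and 2 not called (median log2FC 1.19). B2M, the light chain of class I, was at 144, 144 and 140.5 CPM in cells and at 570, 655, 647 and 627 CPM in tumours (4.37-fold, adjusted p = 1.97e-15). HLA-E rose 2.88-fold, the peptide-trimming ERAP1 2.28-fold and the loading factor TAPBP 1.82-fold. Of 9 class II genes tested, 7 were higher, 1 lower and 1 not called, and HLA-DRA was not tested. The 7 became 4 when genes were required to reach a mean of 1 CPM. The median was 3.21, or 2.08 with the 1 gene at 0 counts in cells put at its bound. HLA-DMB, an exchange factor, was at 4.06, 3.66 and 3.81 CPM in cells and at 120, 127, 96.6 and 119 CPM in tumours (30.0-fold, adjusted p = 1.39e-22), and HLA-DMA rose 12.5-fold. CIITA, the class II master regulator, was the lowered gene, from 0.739 to 0.411 CPM. It and CD74, the invariant chain that antigen-presenting cells make in quantity (0.105 and 0.381 CPM), were named after their values were seen.

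Of 17 NF-kB targets and chemokines tested, 14 were higher, 0 lower and 3 not called (median log2FC 1.81). Over all genes 36.8% were higher and 28.4% lower. CXCL8, a neutrophil attractant, was at 0.766, 0.85 and 0.678 CPM in cells and at 17.4, 12.9, 15.0 and 11.6 CPM in tumours (18.5-fold, adjusted p = 1.27e-10). CXCL5 and CXCL1, of the same kind, rose 14.2-fold and 9.31-fold. The adhesion molecule ICAM1 rose 7.05-fold and the NF-kB subunit RELB 1.66-fold.

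Epithelial genes were higher, and so were many mesenchymal ones, where 36.8% of all genes were higher and 28.4% lower. Of 20 epithelial adhesion and keratin genes, 16 were higher, 1 lower and 3 not called (median log2FC 2.44, or 2.29 with 1 gene at its bound). CDH1, E-cadherin, was at 20.6, 20.2 and 20.9 CPM in cells and at 132, 136, 162 and 154 CPM in tumours (7.10-fold, adjusted p = 2.20e-20). EPCAM rose 12.6-fold, KRT19 10.5-fold, the transcription factor ELF3 2.89-fold and KRT8 1.99-fold, while KRT7, named after its values were seen, fell from 678 ± 14.0 to 345 ± 26.4 CPM. Of 18 mesenchymal genes, 12 were higher, 4 lower and 2 not called (median 1.01). VIM, vimentin, was at 273, 274 and 276 CPM in cells and at 964, 899, 914 and 773 CPM in tumours (3.24-fold, adjusted p = 3.31e-17). S100A4 rose 4.36-fold and SPARC, a matrix protein that fibroblasts also make, 59.6-fold from 0.589 ± 0.197 CPM, with the tumours at 47.8, 29.2, 41.1 and 24.5 CPM. The transcription factors TWIST1 and TWIST2 fell 4.05-fold and 3.91-fold. Fibroblast markers rose in the same tumours and were lowest in replicate 4, which was also lowest for SPARC and VIM. The fibroblast sum ran from 226 to 375 CPM in WT, 111 to 367 CPM in het2 and 327 to 498 CPM in homo tumours. In these lines the log2FC was 0.14, 0.16 and 0.20 for VIM and 6.15, 5.10 and 9.03 for SPARC. Whether fibroblasts had a part in either rise was not tested.

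Mucin, liver-type and complement genes had the highest medians among the pathway lists. Their counts stand beside 36.8% higher and 28.4% lower over all genes. Of 14 mucin and goblet cell genes, 13 were higher, 0 lower and 1 not called (median log2FC 5.28). AGR2, a disulfide isomerase for mucins, was at 152, 157 and 157 CPM in cells and at 4471, 4980, 4824 and 6311 CPM in tumours (33.2-fold, adjusted p = 2.05e-23). MUC5B, the other gel-forming airway mucin, rose 624-fold from 4.90 ± 0.762 to 3058 ± 351 CPM, TFF1 147-fold, SPDEF, the goblet cell transcription factor, 45.5-fold and MUC13 12.1-fold. Of 16 liver-type plasma protein genes tested, 14 were higher, 0 lower and 2 not called (median 4.97, or 4.58 with 1 gene at its bound). Beyond the fibrinogens, APOH rose 65.6-fold to 57.0 ± 14.1 CPM and AMBP 8.66-fold to 6.84 ± 0.933 CPM. Of 17 complement genes, 15 were higher, 0 lower and 2 not called (median 3.27). C5, the start of the lytic pathway, was at 33.9, 36.9 and 35.1 CPM in cells and at 649, 735, 702 and 824 CPM in tumours (20.6-fold, adjusted p = 3.09e-19). The regulators SERPING1 and C4BPA rose 13.8-fold and 27.5-fold, and CFB 27.1-fold.

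Of 13 neuroendocrine genes tested, 9 were higher and 2 lower (median log2FC 1.12), beside 36.8% and 28.4% of all genes. Beside CHGB, CPE and ENO2, SCG5 rose 3.77-fold to 1.82 ± 0.204 CPM, whereas SCG2, another granin, was at 189, 202 and 197.5 CPM in cells and at 53.3, 52.8, 46.5 and 63.3 CPM in tumours (3.63-fold lower, adjusted p = 1.08e-08). Lung alveolar and secretory genes were scarcely expressed: 8 of 16 were tested, 3 were higher and 1 lower, a share higher near the 36.8% of all genes. ABCA3, the lamellar body transporter, rose 2.46-fold from 30.0 ± 1.83 to 73.7 ± 2.23 CPM. SFTPD, a collectin, rose from 0.243 to 1.68 CPM, AQP5 had 1 count in cells and 0.0632 CPM in tumours, AGER fell 1.5-fold, and the lung factor NKX2-1 was at 0.0588 and 0.0229 CPM, not called.

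Stress programmes moved in different directions, beside 36.8% higher and 28.4% lower over all genes. Of 16 unfolded protein response genes, 15 were higher and 0 lower (median log2FC 0.98). XBP1, its transcription factor, was at 39.4, 40.8 and 39.2 CPM in cells and at 509, 580, 567 and 665 CPM in tumours (14.6-fold, adjusted p = 1.75e-25). The chaperones DNAJB9, HSP90B1 and DNAJC3 rose 4.54-fold, 2.37-fold and 1.97-fold, and HERPUD1, of the disposal route, 2.78-fold. Of 19 ATF4 targets, 4 were higher and 11 lower (median -0.68). PSAT1, of serine synthesis, was at 251, 249 and 243 CPM in cells and at 30.1, 35.4, 31.9 and 39.0 CPM in tumours (7.26-fold lower, adjusted p = 3.84e-18). PHGDH, MTHFD2 and ATF5 fell 2.59-fold, 1.90-fold and 1.92-fold, and the lipoprotein receptor VLDLR rose 4.21-fold.

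Of 20 p53 targets, 3 were higher and 16 lower (median log2FC -0.57). CDKN1A, the p21 inhibitor of the cell cycle, was at 87.0, 84.1 and 85.3 CPM in cells and at 56.0, 58.4, 54.5 and 55.9 CPM in tumours (1.52-fold lower, adjusted p = 1.12e-11). BAX, MDM2, FDXR and RRM2B fell 1.98-fold, 1.73-fold, 1.72-fold and 1.48-fold. NRF2 targets divided, with 11 of 22 higher and 9 lower, beside 36.8% and 28.4% of all genes. The aldo-keto reductases AKR1B10 and AKR1C2, which metabolise carbonyls and steroids, rose 9.96-fold and 10.1-fold, AKR1C3 6.48-fold, the glutathione peroxidase GPX2 15.7-fold and the exporter ABCC3 4.56-fold. HMOX1, haem oxygenase, was at 288, 274 and 288 CPM in cells and at 27.9, 22.0, 44.4 and 30.8 CPM in tumours (9.05-fold lower) and was named after its values were seen. The AKR1C genes are near-identical copies and may trade reads.

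Lipid and respiratory genes moved little or fell. Over all genes 36.8% were higher and 28.4% lower, against which the counts of this paragraph can be read. Of 12 fatty acid synthesis genes, 1 was higher and 9 lower (median log2FC -0.34). SCD, the stearoyl-CoA desaturase, was at 2796, 2792 and 2704 CPM in cells and at 757, 810, 752 and 919 CPM in tumours (3.41-fold lower, adjusted p = 1.91e-21). FASN, ACACA and ACLY fell 3.55-fold, 1.86-fold and 1.45-fold, and ACSS2, which uses acetate, rose 1.31-fold. Of 24 cholesterol genes, 8 were higher and 11 lower. MSMO1 and HMGCS1, enzymes of the pathway, rose 2.73-fold and 1.77-fold, and TM7SF2 1.91-fold and PMVK 1.62-fold. Of 30 nuclear respiratory chain genes, 9 were higher and 15 lower, within 1.48-fold in either direction, and 12 and 12 when scaled on genes of at least 10 CPM in cells. Of 13 mitochondrially encoded genes, 0 were higher and 7 lower, with the largest fall, 1.6-fold, in MT-ND3. Tumour replicate 4 was the lowest of the tumours for all 13, and without it 2 of the 13 were higher and 5 lower. Of 18 lysosome and autophagy genes, 9 were higher and 8 lower, with HEXA, CTSB and WIPI1 up 1.97-fold, 1.96-fold and 2.60-fold and ATP6V1H down 1.69-fold.

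Signalling lists divided as well, where 36.8% of all genes were higher and 28.4% lower. Of 24 immediate early genes, 15 were higher and 7 lower (median log2FC 0.70). FOS was at 2.42, 2.45 and 1.86 CPM in cells and at 44.7, 45.6, 34.5 and 37.1 CPM in tumours (18.0-fold, adjusted p = 2.20e-17). KLF4, ATF3, JUNB and ZFP36 rose 9.22-fold, 12.9-fold, 5.14-fold and 3.95-fold. Of 15 TGF-beta and BMP response genes, 7 were higher and 6 lower: BMP4 rose 15.1-fold, its pseudoreceptor BAMBI 6.75-fold and the latency protein LTBP1 2.20-fold, while the BMP targets ID2 and ID3 fell 4.28-fold and 7.88-fold. Of 10 WNT targets tested, 6 were higher and 1 lower. DKK1, a secreted WNT inhibitor, was at 73.1, 74.2 and 69.5 CPM in cells and at 689, 696, 527 and 611 CPM in tumours (8.73-fold, adjusted p = 1.51e-21), and CCND1 rose 1.96-fold. AXIN2 rose 2.37-fold, SP5 33.5-fold and NOTUM 8.89-fold, all under 3 CPM in every library. Of 16 YAP and TAZ targets, 4 were higher and 9 lower. The ecto-nucleotidase NT5E rose 6.05-fold, and FJX1, AMOTL2, PTPN14 and CRIM1 fell 6.55-fold, 2.59-fold, 2.34-fold and 1.97-fold.

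Secreted factors, matrix and transport genes changed widely, beside 36.8% higher and 28.4% lower over all genes. Of 18 growth factor genes, 10 were higher and 6 lower. HGF, the ligand of MET, was at 17.5, 18.0 and 16.8 CPM in cells and at 307, 328, 266 and 256 CPM in tumours (16.6-fold, adjusted p = 8.08e-16). IGFBP3 rose 68.2-fold to 259 ± 57.1 CPM, and AREG, the EGF receptor ligand next of kin to EREG, fell 17.0-fold from 52.6 ± 0.973 to 3.09 ± 0.29 CPM. Of 22 basement membrane and matrix genes, 14 were higher and 4 lower (median log2FC 0.88). LAMB1, a laminin beta chain, was at 246, 245 and 245 CPM in cells and at 553, 538, 527 and 518 CPM in tumours (2.18-fold, adjusted p = 8.98e-17). LAMB2 and COL6A2 rose 2.06-fold and 4.09-fold, and LAMA3, a laminin alpha chain, fell 3.19-fold. Of 16 proteases and inhibitors, 12 were higher and 1 lower (median 2.28). The collagenase MMP1 rose from 0.0470 to 5.59 CPM, MMP10 from 0.158 to 8.97 CPM, MMP15 2.52-fold, the inhibitor TIMP1 2.48-fold and the urokinase receptor PLAUR 3.87-fold, and the lowered gene was urokinase itself, PLAU, named after its values were seen. Of 16 ion and water transport genes, 10 were higher and 2 lower. The sodium pump subunit ATP1B1 rose 5.60-fold, the bicarbonate carrier SLC4A4 15.0-fold, the water channel AQP3 6.43-fold and the sodium channel subunit SCNN1B 31.4-fold, and CA8 fell 15.1-fold.

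**Figure D4:**
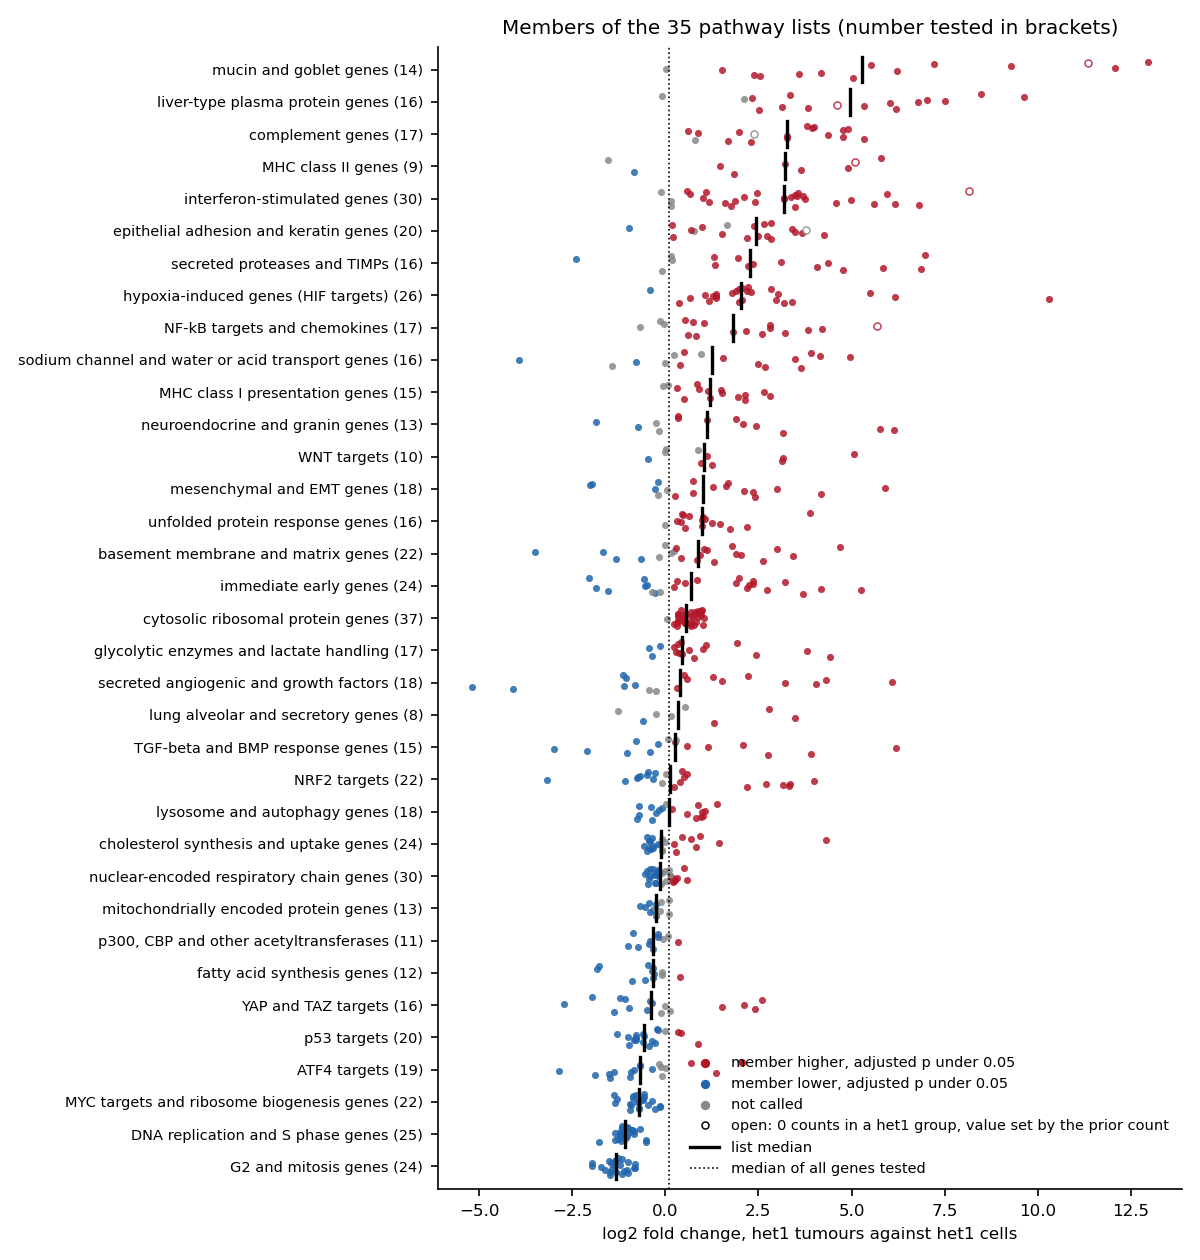
Log2 fold change of each tested member of the 35 pathway lists, het1 tumours against het1 cells, with black bars for list medians and a dotted line at the median of all genes, 0.09. Open points are members at 0 counts in a het1 group, whose values depend on the prior count. The mucin list has its median at 5.28 and the G2 and mitosis list at -1.32, with every member of the latter lower.

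EP300 itself was lower in the tumours. It was at 174, 173 and 178 CPM in cells and at 109, 108, 107 and 95.2 CPM in tumours (chromosome 22, 41091786 to 41180079). The settings did not overlap and the log2FC was -0.74 ± 0.08 (adjusted p = 6.74e-09). CREBBP, which encodes CBP, was at 85.1, 83.6 and 86.0 CPM in cells and at 72.7, 69.6, 64.4 and 61.7 CPM in tumours (log2FC -0.34 ± 0.08, adjusted p = 8.94e-04). Of the 11 acetyltransferase genes, 1 was higher and 8 lower, beside 36.8% and 28.4% of all genes. KAT2A, NCOA3, KAT6A and KAT2B fell 2.00-fold, 1.82-fold, 1.34-fold and 1.35-fold.

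Whether het1 changed differently from the other lines was tested in the same fit. Against the parental line, 5852 genes (24.2%) had a higher change in het1 and 3633 (15.0%) a lower one. The excess of higher calls was smaller with DESeq2 (4917 and 4580) and, in edgeR, with its size factors (4700 and 4344) or upper-quartile scaling (4831 and 4325). Against the mean change of WT, het2 and homo, 3749 genes (15.5%) were above and 3184 (13.1%) below. This excess turned with DESeq2 (3521 above and 3943 below) and with its size factors in edgeR (3251 and 3714). The EP300 fall in het1 was larger than the mean fall of the other lines by 0.38 ± 0.095 on the log2 scale (adjusted p = 0.00266). Their own log2FC were -0.33 in WT, -0.41 in het2 and -0.32 in homo.

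Hypoxia and glycolysis genes were the 2 lists most often above the other lines, where 15.5% of all genes were above and 13.1% below. Of the 26 hypoxia genes, 21 had a larger change in het1 and 1 a smaller one, and the list medians were 2.02 in het1, 1.06 in WT, 0.92 in het2 and 0.92 in homo. BNIP3L rose by 2.05 in het1 and by 1.27, 0.78 and 0.41 in WT, het2 and homo (difference 1.22, adjusted p = 1.40e-12). Of 17 glycolysis genes, 15 were above and 1 below. LDHA rose by 0.63 in het1, against -0.57 in WT, 0.07 in het2 and 0.54 in homo (difference 0.62, adjusted p = 7.36e-12). Of 37 ribosomal protein genes 29 were above and 0 below, of 15 MHC class I genes 11 and 0, of 22 matrix genes 12 and 2, and of 18 mesenchymal genes 11 and 2. VIM was the clearest of these, with log2FC of 1.69 in het1 and 0.14, 0.16 and 0.20 in WT, het2 and homo (difference 1.53, adjusted p = 1.18e-13).

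Against the mean of the other lines, epithelial and mucous genes were more often below than above. Over all genes 15.5% were above and 13.1% below, and against WT alone 24.2% were above and 15.0% below. Of 20 epithelial genes, 13 had a smaller change in het1 and 1 a larger one, with a median difference of -1.25. CDH1 rose by 2.83 in het1, 2.68 in WT, 5.57 in het2 and 6.33 in homo (difference -2.03, adjusted p = 9.30e-15), with het2 and homo above the other 2 lines. Of 14 mucin genes, 16 liver-type genes and 17 complement genes, 5, 5 and 5 were below and 0, 0 and 1 above. Against WT alone, 6 mucin genes were above and 2 below, 6 liver-type genes above and 0 below, 5 complement genes above and 6 below, and 6 epithelial genes above and 9 below. AGR2 rose by 5.05 in het1, against 1.79, 8.87 and 11.8. Of 30 interferon-stimulated genes 6 differed, 1 above and 5 below, and against WT alone 10 were above and 5 below. Both shares below were near those of all genes. Of 25 S phase genes 0 were above and 3 below, a share below near that of all genes. Of 24 mitosis genes 10 were above and 0 below, so the fall in mitosis genes was smaller in het1 for these 10.

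**Figure D5:**
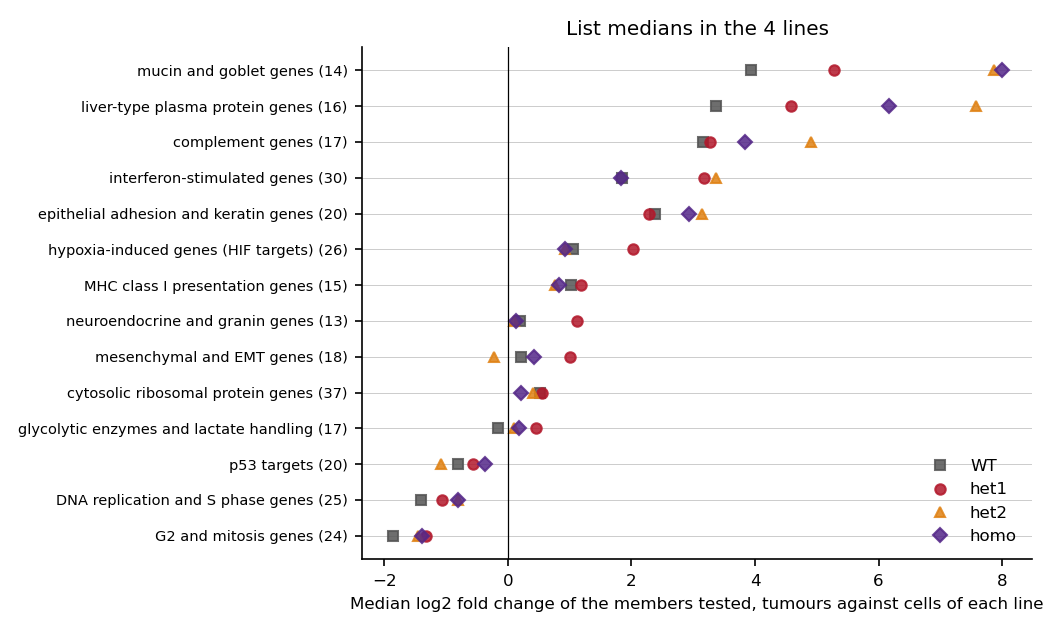
Median log2 fold change of the tested members of 14 lists, tumours against cells of the same line, for WT, het1, het2 and homo, with genes at 0 counts in a group put at their bound. The hypoxia median was 2.02 in het1 and 0.92 to 1.06 in the other lines, and the mucin median lay between that of WT and those of het2 and homo.

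The 6 genes with the largest differences in each direction, at a mean of 5 CPM or more in a het1 group, often differed in cells. CALCR was at 36.4 ± 4.38 CPM in het1 tumours and at 1.95, 3.00 and 0.674 CPM in WT, het2 and homo tumours, and at 0.108 CPM or less in the cells of every line. HHIP, a hedgehog-binding protein, was at 11.2 ± 1.18 CPM in het1 tumours and at 2.01, 0.832 and 1.35 CPM in the others. ALDH1A2, which makes retinoic acid, was at 11.9 CPM in het1 and 11.2 CPM in homo tumours, and at 0.208 and 1.44 CPM in WT and het2. For ADRA2A the tumour levels were close, 11.2 CPM in het1 and 11.7 CPM in WT, and the cell levels were not, 1 count in het1 and 0.125 CPM in WT. STC2, a glycoprotein hormone, rose from 1.42 to 5.91 CPM in het1 and went from 24.4 to 2.56 CPM in WT and from 36.3 to 9.10 CPM in het2. MEG3, a long noncoding RNA, rose from 9.41 ± 1.21 to 71.9 CPM in het1, where the tumours stood at 102, 86.1, 61.7 and 37.6 CPM, and went from 92.7 to 22.5 CPM in het2.

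In the opposite direction the largest difference was -5.61 ± 0.39 for COL3A1, a fibrillar collagen and fibroblast marker (adjusted p = 4.29e-10). It was at 21.6, 22.7 and 22.9 CPM in het1 cells and at 46.5, 32.5, 45.1 and 17.0 CPM in het1 tumours, which overlapped and were not called. In WT, het2 and homo it was at 0.320, 1.42 and 1.32 CPM in cells and at 48.4, 60.8 and 92.7 CPM in tumours, with the het1 cells above the cells of every other line. The organic anion transporter SLCO1A2 fell from 16.2 to 2.56 CPM in het1 and was under 1 CPM in every other group. COL11A1, another fibrillar collagen, fell from 20.8 to 2.76 CPM in het1 and went from 0.707 to 7.27 CPM in het2. MYPN was at 0.0496 to 0.127 CPM in the tumours of the 4 lines, from 48.5 CPM in het1 cells and from 3.72, 5.42 and 4.94 CPM in WT, het2 and homo cells. For the homeobox gene LHX8 and the Y-linked deubiquitinase USP9Y, the differences of -4.72 and -4.63 came with near-empty cell libraries of other lines. LHX8 had 3 counts in het2 and 1 in homo cells and USP9Y 1 and 5, so those fitted values depend on the prior count. In het1 LHX8 rose 2.92-fold and USP9Y fell 1.51-fold.

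The DMSO-treated het1 tumours, from the third table, gave a further set of 4 tumours against the same 3 cell libraries. With them in place of the day 30 tumours 9118 genes were higher and 6901 lower. That fit scaled all 44 libraries together, SAHA-treated tumours included, so its CPM are on another scaling than the day 30 values above. CEACAM6 was at 6653 ± 688 CPM, CHGB at 4549.6 ± 989 CPM, NDRG1 at 817 ± 204 CPM and MYPN at 0.0517 ± 0.038 CPM in them. REG4 was at 340 ± 69.8 CPM and CA9 at 65.7 ± 11.5 CPM. EP300 was at 130 ± 8.14 CPM (log2FC -0.42), above all 4 day 30 tumours as scaled without the treated ones. CREBBP at 81.6 ± 5.55 CPM was no longer called (log2FC -0.05).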

How the data were processed

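The authors deposited whole-number counts per gene in 3 tables (cells, day 30 tumours, DMSO- or SAHA-treated tumours). Per the submitters' processing notes, bcl2fastq, HISAT2 and HTSeq were used with hg38, and per the labels' protocols polyA RNA was sequenced with a stranded kit. The sources used here do not give the strand setting, the annotation release or the handling of host reads. Gene IDs were joined across tables (58721 of 58721 matched GENCODE 29, GRCh38). The 28 cell and day 30 tumour libraries, 61168373 to 99593214 counts each, were fitted together with edgeR 4.0.16 (TMM, filterByExpr, robust quasi-likelihood test, Benjamini-Hochberg adjustment over 24227 genes). The other 34494 genes were not tested. Standard errors are the log2 fold change over the square root of F. Tested on simulated data for het1, 99% of 2-fold and 93% of 1.5-fold changes were recovered and 0.039% of unchanged genes were called, over 23247 genes. Only 100 genes per fold were changed, all at a mean of 5 CPM or more and evenly up and down. The simulation therefore does not cover lower counts or a change as wide and uneven as in the data. Same-numbered cell and tumour libraries did not deviate together (correlations 0.002, -0.015 and -0.019). Named genes are EP300, CREBBP, the 10 largest rises, the 10 largest falls, the 10 largest rises among genes at 5 CPM or more in cells (each at a mean of 5 CPM or more in the higher group, without overlap, with a symbol and outside the marker lists), the 6 largest differences from the other lines in each direction (at a mean of 5 CPM or more in a het1 group), the 5 smallest p of each list and the 3 highest markers of each marker list; some genes the rule names are not reported here. Alternatives changed the scaling, filter, tool, libraries and tumours (closing section). The comparison, its gene lists and its alternatives were chosen with earlier results of these data known. Promoter sequences are RefSeq's on GRCh38.p14. SAHA-treated tumours entered only the fit with the DMSO-treated tumours, which took all 44 libraries, and no result is given for them. Intervals and bounds cover counting error only.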

Additional observations from a re-analysis of the deposited data

Results flagged for a closer look

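In 11 of the 230 named genes the tumour farthest from the others was separated by more than Dixon's 95% limit, which chance gives in about 1 in 20 groups. Tumour replicate 4 was the high one for TFF3 (337.92 CPM), DNAJB9 (101.66 CPM), KAT2B (35.222 CPM) and ACTA1 (19.242 CPM), and the low one for MDM2 (97.51 CPM), AGER (0.99338 CPM) and MUC5B (2534.5 CPM). Replicate 1 was high for RPL3 (1505 CPM) and low for C4BPA (6.8101 CPM). Replicate 2 was low for FMN2 (0.067293 CPM) and replicate 3 for MTHFD2 (104.9 CPM).

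The tumour-against-cell change in het1 differed from the mean change of WT, het2 and homo for 149 of the 230 named genes (log2 scale, edgeR), of which the 6 largest differences in each direction follow. It was above by 6.45 for CALCR, 5.61 for ADRA2A, 5.49 for HHIP, 4.31 for ALDH1A2, 3.88 for STC2 and 3.86 for MEG3. The differences were -5.61 for COL3A1, -4.88 for SLCO1A2, -4.86 for COL11A1, -4.72 for LHX8, -4.63 for USP9Y and -4.57 for MYPN. The levels behind these values are given above, and those with few counts in a cell group depend on the prior count.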

How the results depend on the processing

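Requiring at least a 2-fold change left 4727 genes higher and 1919 lower, 1786 and 1446 for the difference from WT, and 959 and 777 for the difference from the other lines. Leaving out each het1 library in turn (for the difference from WT also each WT library, and no het2 or homo library) gave 8468 to 8773 genes higher and 6478 to 6795 lower, 5347 to 5770 above and 3326 to 3666 below the WT change, and 3158 to 3797 above and 2667 to 3368 below the other lines. With a replicate block 8810 were higher and 6852 lower, 5596 and 3533 against WT, and 3535 and 2968 against the other lines. The numbers do not pair the samples, and the block changed the call of 1 named gene, COL3A1, which was then called higher (0.74). DESeq2 1.42.0 gave 8694 and 7222, its size factors in edgeR 8606 and 7185, upper-quartile scaling 8381 and 7482, a 1 CPM filter 6413 and 5724, and the 7 het1 libraries alone 7959 and 6825. Scaling on genes of at least 10 CPM in cells gave 9808 and 5996, which moved the share of calls that were higher from 56.4% to 62.1%. The scaling on genes of at least 10 CPM in cells shifted the median log2 fold change by 0.089. Reversed values were COL3A1 (-0.60) and ACTA2 (-0.15) with the DMSO-treated tumours, and ADGRE1, whose value was 0.07 under that scaling and -0.06 to 0.02 with a library left out (0.02 without cell replicate 2 and 0 without tumour replicate 2, against -0.02 with all). With the DMSO-treated tumours CREBBP (-0.05), AQP5 (2.77) and MBP (-0.04) were no longer called, nor was MT-CYB (-0.35) with the 7 het1 libraries alone. The cause was not tested. The lymphocyte median with a 1 CPM filter could not be given, since no genes were left.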
